A study of Mus musculus with 6 samples.

Results

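The genes described here encode the subunits of oxidative phosphorylation, the pathway by which mitochondria use electrons from food to make ATP. Members were all genes whose platform symbol, standing alone on a transcript cluster, begins with Ndufa, Ndufb, Ndufc, Ndufs, Ndufv, Uqcr, Cox4, Cox5, Cox6, Cox7, Cox8 or Atp5, or is Sdha, Sdhb, Sdhc or Sdhd. The rule used no measured change. It found 93 genes among 30145 named ones, each represented by its brightest cluster over the 6 arrays. By name, 43 belong to complex I, 4 to complex II, 8 to complex III, 18 to complex IV and 20 to complex V. They were measured in hematopoietic stem cells (HSCs), the cells that renew the blood, from wild-type mice (3 arrays) and from CDK19-/- mice (3 arrays). All mice were 6 to 8 weeks old, and the marrow was freed of lineage-marked cells and sorted by flow cytometry. The kinase CDK19, a paralog of CDK8, works within Mediator, the coactivator that bridges enhancer-bound factors and RNA polymerase II. The labels give neither the deleted part of the gene, the sex, the gate, nor how many animals each array holds.

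Complexes I and II take electrons from NADH and succinate and pass them to ubiquinone. Complex III hands them to cytochrome c and complex IV to oxygen. Complexes I, III and IV pump protons as they do so, and complex V, the ATP synthase, lets the protons flow back to make ATP. Complexes I, III, IV and V mix subunits of mitochondrial and nuclear DNA, and the members here are all nuclear. Quiescent HSCs are known for relying on glycolysis more than their progeny do, and respiration rises as they divide and differentiate.

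The expression values are the authors' deposited values, taken here as log2. A difference of 1 stands for a factor of 2 if base 2, which is not stated, is right. Arrays had medians between 4.40 and 4.48. Levels of different clusters cannot be compared with each other, because probes differ in brightness. Cdk19 was lower in the knockout, at 11.47 ± 0.05 (SD, n = 3) against 12.44 ± 0.06 (SD, n = 3), its paralog Cdk8 differed by -0.02 and Cdkn1a was 1.03 higher. A linear model (limma, Benjamini-Hochberg adjusted over all 39543 clusters above the brightness filter) called 2.96% of tested clusters higher and 4.84% lower in the knockout at an adjusted p under 0.05. Of the 93 members, 91 passed the filter. The HSC and early progenitor markers tested, 12 in all, had a mean log2 level between 9.96 and 9.99 in the wild-type arrays. In the knockout arrays it was between 9.69 and 9.72, and 4 markers were called lower: Kit, Hlf, Meis1 and Flt3. The rest were not called, and their differences ran from -0.15 (Cd34 and Fgd5) to 0.16 (Tek). Flt3 is counted in the next list too. Of 8 tested lymphoid-primed and B cell markers 6 were called lower (mean level 8.24 to 8.26 against 7.49 to 7.54), and 4 of 6 megakaryocyte markers were called higher (6.77 to 6.82 against 7.29 to 7.38). Granulocyte markers were at a mean of 8.34 to 8.43 against 8.46 to 8.63, with 2 of 10 (Prtn3 and Ctsg) called higher. Mpo (-0.05) and Fcnb (-0.12) were lower but not called. Monocyte and macrophage markers were at a mean of 7.92 to 8.07 against 8.07 to 8.31, with 1 of 7 (Cd14) called higher. Ly6c2 (-0.35) and Lyz2 (-0.01) were lower but not called. Erythroid markers were at 5.92 to 6.04 against 5.83 to 5.84, with 1 of 6 (Car1, by -1.04) called lower. T and NK cell markers were at 6.46 to 6.57 against 6.57 to 6.60. Of 5 tested, 0 were called by limma (2 higher and 1 lower at an unadjusted p under 0.05). Mast cell and basophil markers were at 7.07 to 7.25 against 7.06 to 7.19, with 1 of 4 (Cpa3) called higher. Prss34 (-0.31, limma unadjusted p = 0.0285) and Mcpt8 (-0.13) were lower but not called. Rag2, Cd3e, Cd8a, Ppbp, Epb42, Fcer1a and Cma1 lay below the filter. What part a different cell mix has in the values below was not tested, and in sorted bulk cells fewer cells of a type and less RNA per cell cannot be told apart.

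Oxidative phosphorylation genes barely differed between the genotypes. Of 91 tested members, 1 rose, Ndufa10 of complex I, and 0 fell (limma, adjusted p under 0.05). Over all tested clusters, 2.96% were called higher and 4.84% lower. Without adjustment, 10 passed a p of 0.05 in the higher direction and 1, Ndufaf1, in the lower, where the background over all tested clusters was 9.32% and 12.3%. The median log2 change of the members was 0.08, from -0.29 (Ndufaf1) to 0.54 (Atp5md), against a median of 0.00 over all tested clusters. Small differences mostly had the same sign: 75 of 91 members (82.4%) were higher in the knockout by their mean, against 50.6% of all tested clusters. Over the brightest cluster of each named gene, the choice made for the members, the share was 48.6% of 19923 tested. All 3 knockout arrays lay above all 3 wild-type arrays for 17 members and below for 2, where the background was 11.6% and 14.9%. Of the 19923 brightest clusters of named genes, 2611 lay wholly above and 3819 wholly below. Of the same clusters, 699 were called higher and 1172 lower.

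The precision bounds what could have been missed. The 95% interval of the log2 change lay wholly between -0.5 and 0.5 for 81 of the 91 members, and for 0 of them did it reach 1 in either direction. The interval went above 0.5 for Atp5md, Atp5mpl, Ndufs8, Cox6b1, Ndufb9, Uqcrb, Atp5d, Cox7a2 and Atp5g1, and below -0.5 for Ndufa4. The highest upper bound was 0.88 (Atp5mpl). A change as large as that of Cdk19 itself, -0.97, therefore lay outside the interval of every tested member.

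**Figure D1:**
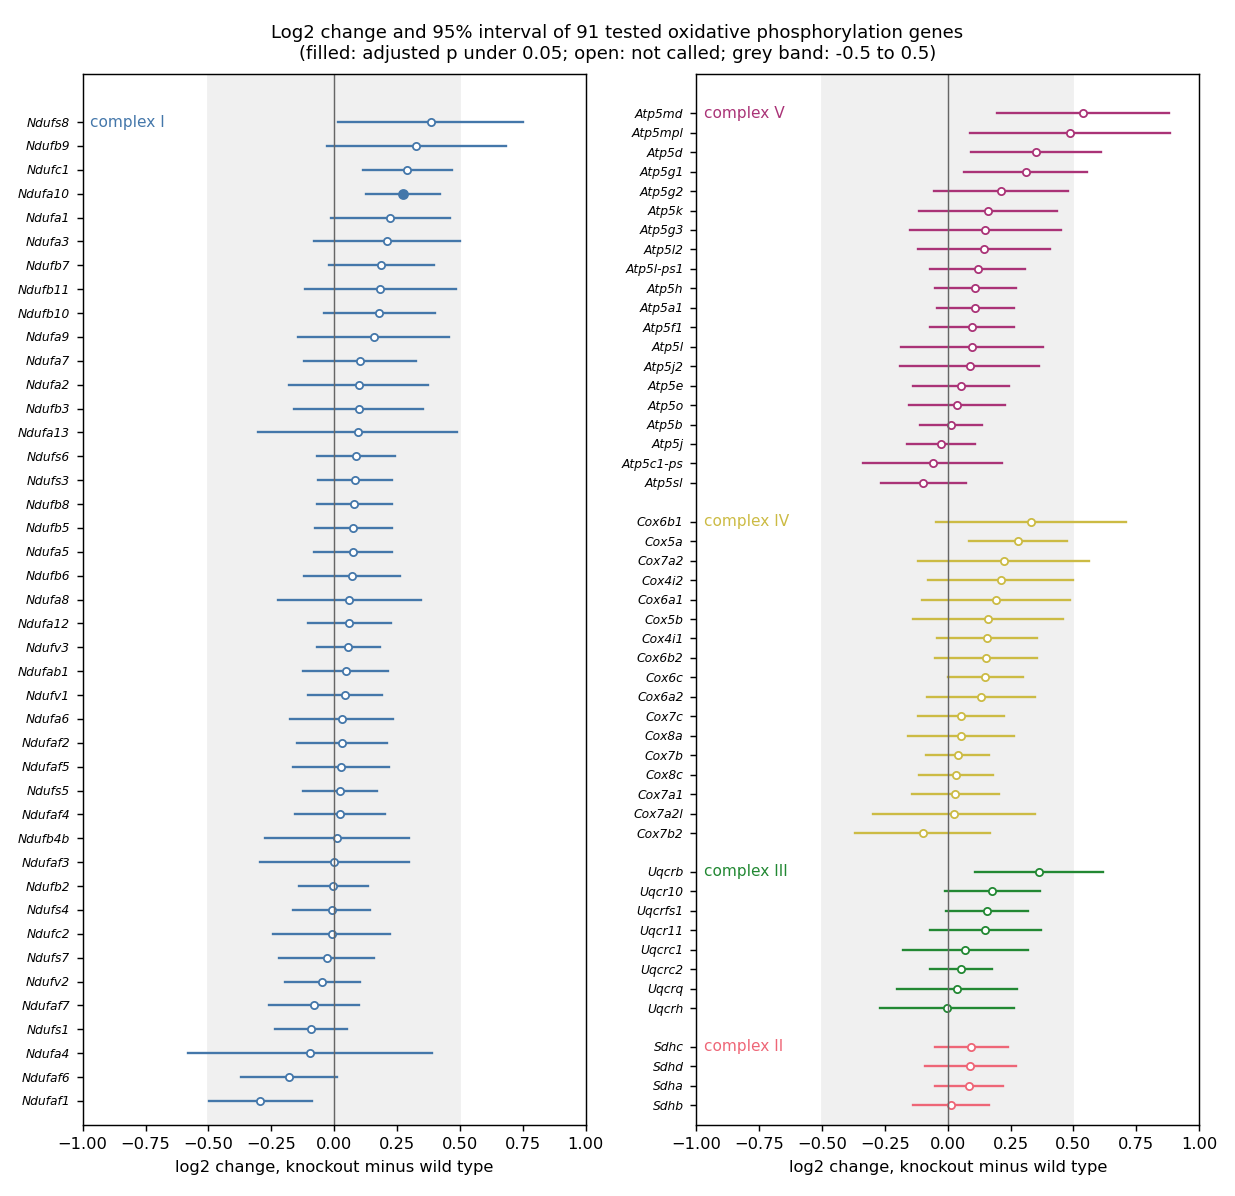
Log2 change (knockout minus wild type, x axis) of the 91 tested members, by complex, with lines for the 95% interval from the limma fit. Ndufa10, filled, is the member called; the grey band marks -0.5 to 0.5, which holds the whole interval of 81 members.

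Knockout array 3 stood apart from the other arrays in these genes. It held the highest of the 6 values for 62 of 91 members (68.1%), against 18.5% of all tested clusters. It lay above every wild-type array for 68 members, while knockout arrays 1 and 2 did so for 32 and 31. Over all tested clusters the corresponding shares were 28.4%, 31.7% and 31.6% for knockout arrays 1, 2 and 3. The members' median deviation from their own mean was 0.15 in knockout array 3, 0.00 in knockout array 1 and -0.02 in knockout array 2, against -0.02, -0.06 and -0.05 in wild-type arrays 1, 2 and 3. Without knockout array 3 the median change was 0.04 in place of 0.08, and 62 of 91 members were higher. The medians of complexes I to V were then 0.03, 0.04, 0.06, 0.08 and 0.04, in place of 0.06, 0.09, 0.11, 0.15 and 0.11. Without knockout array 1 the median of complex V was 0.19.

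Each complex was high in that array, with median deviations in knockout array 3 of 0.11 for complexes I and II, 0.20 for complexes III and V and 0.19 for complex IV. Over all tested clusters the median deviation in that array lay within 0.01 of 0. A list of cytosolic ribosomal proteins was added after the values were seen. It was taken by symbol and includes relatives such as Rps27l and Rps19bp1. Knockout array 3 was highest in 22 of its 40 tested genes (55.0%, median deviation 0.06), and in 22 of 73 mitochondrial ribosomal proteins (30.1%, 0.04). For the citric acid cycle and pyruvate dehydrogenase it was 6 of 17 (35.3%, 0.08), and for mitochondrial carriers and uncoupling proteins 5 of 6 (83.3%), a larger share than that of the members. The labels give no batch or RNA quality for this array, and what sets it apart was not tested.

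**Figure D2:**
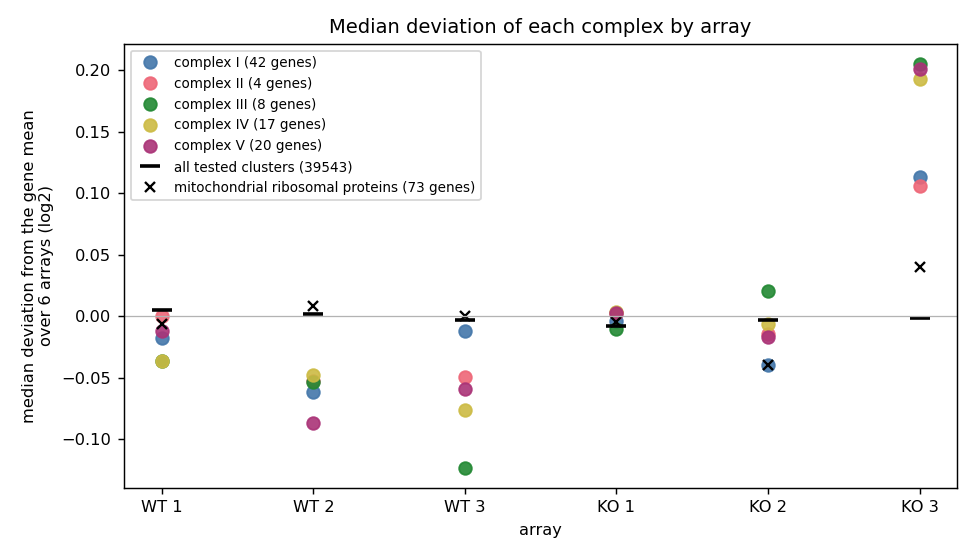
Median, over the tested genes of each complex, of the deviation from each gene's mean over 6 arrays (log2, y axis), by array. All 5 complexes lie between 0.11 and 0.20 or just above in knockout array 3, while all tested clusters (bars) stay within 0.01 of 0.

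Promoter sequence was available for 73 of the 93 members. In 78 windows from RefSeq (GRCm38.p6), each running from 250 bases before to 50 bases after a start site, motifs of known regulators of respiratory genes were searched on both strands. The motif of NRF1, which drives many nuclear genes of respiration, was in 20.5% of the members' windows against 4.60% of all 32851 windows. The ETS motif CCGGAAG, bound by GABPA, was in 23.1% against 8.86%, and the YY1 motif AAGATGGC in 14.1% against 2.75%. The ERR motif TCAAGGTCA was in 2.56% against 0.423%, the CRE TGACGTCA in 3.85% against 1.79%, and the E-box CACGTG in 11.5% against 7.15%. CCAAT (39.7% against 37.4%) and the GC box GGGCGG (43.6% against 35.7%) were common in both. The median log2 change was 0.07 for 15 tested genes with the NRF1 motif and 0.08 for 57 without, 0.09 for 18 with the ETS motif and 0.07 for 54 without, and 0.08 for 10 with the YY1 motif and 0.07 for 62 without. For CCAAT it was 0.06 with and 0.08 without, for the GC box 0.06 and 0.09, and for the E-box 0.10 and 0.07. It was 0.16 for the 3 genes with the CRE and 0.07 without, and 0.12 for the 2 with the ERR motif and 0.07 without. No test was made of these shares, and a match is not a binding site.

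Below are the windows of the called member, Ndufa10, and, chosen after their values were seen, of the complex I gene nearest to it (Ndufc1), the member with the largest difference (Atp5md) and the one with the lowest (Ndufaf1). Each runs 5′ to 3′ from 250 bases before to 30 bases after the start, with every motif named above in capitals.
Ndufa10, chr1:92473729-92474008, minus strand: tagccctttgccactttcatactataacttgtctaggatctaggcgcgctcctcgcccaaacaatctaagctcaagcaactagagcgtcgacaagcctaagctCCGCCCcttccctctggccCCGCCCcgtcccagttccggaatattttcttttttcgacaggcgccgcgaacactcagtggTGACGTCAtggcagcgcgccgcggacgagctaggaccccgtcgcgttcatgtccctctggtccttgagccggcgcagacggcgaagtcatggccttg
Ndufc1, chr3:51408926-51409205, minus strand: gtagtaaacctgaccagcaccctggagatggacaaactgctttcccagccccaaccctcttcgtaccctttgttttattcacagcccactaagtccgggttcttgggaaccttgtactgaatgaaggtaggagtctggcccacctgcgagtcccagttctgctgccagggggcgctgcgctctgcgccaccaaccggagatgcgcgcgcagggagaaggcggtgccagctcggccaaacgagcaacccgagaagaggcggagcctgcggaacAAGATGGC
Atp5md, chr19:47090618-47090897, minus strand: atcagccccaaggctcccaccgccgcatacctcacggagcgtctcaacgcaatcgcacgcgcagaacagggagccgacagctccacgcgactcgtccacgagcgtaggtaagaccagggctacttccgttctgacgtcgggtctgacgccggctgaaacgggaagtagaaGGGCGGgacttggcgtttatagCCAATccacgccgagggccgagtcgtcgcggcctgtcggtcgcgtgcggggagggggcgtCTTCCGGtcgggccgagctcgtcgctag
Ndufaf1, chr2:119662805-119663084, minus strand: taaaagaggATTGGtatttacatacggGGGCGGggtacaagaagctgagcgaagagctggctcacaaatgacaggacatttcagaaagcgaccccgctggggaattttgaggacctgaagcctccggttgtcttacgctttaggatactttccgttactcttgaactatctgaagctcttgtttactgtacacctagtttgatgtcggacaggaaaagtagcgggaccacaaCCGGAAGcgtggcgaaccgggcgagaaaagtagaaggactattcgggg
Ndufa10 holds a pair of GC boxes and the CRE TGACGTCA, which was also in the windows of Ndufb2 and Uqcrfs1. Ndufc1 holds only the YY1 motif, just after its start. Atp5md holds a GC box, CCAAT and an ETS motif, and Ndufaf1 holds the same 3 kinds at other positions. Whether motif content goes with the change was not tested.

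In complex I, the NADH dehydrogenase, 1 of 42 tested genes rose and 0 fell (limma; 3 higher and 1 lower at an unadjusted p under 0.05), with a median log2 change of 0.06. Over all tested clusters, 2.96% were called higher and 4.84% lower, or 9.32% and 12.3% unadjusted. These shares are the background for the complexes and gene lists below as well. Ndufa10, an accessory subunit on chromosome 1, had wild-type values of 9.78, 9.79 and 9.83 and knockout values of 10.15, 9.99 and 10.08. The groups did not overlap, and knockout array 1 was the highest. The knockout mean was 0.27 higher (SE 0.06), or 1.21-fold, at a limma adjusted p of 0.044. This call was near its threshold: it was lost without knockout array 1 (adjusted p = 0.10) or 3 (0.10), without wild-type array 1 (0.13), 2 (0.15) or 3 (0.13), with arrays shifted to a common median (0.13), without the brightness filter (0.073) and without an intensity trend (0.052).

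Ndufc1, a small accessory subunit of the membrane arm, was at 5.70, 5.64 and 5.50 in wild type and at 5.90, 5.87 and 5.94 in knockout. All knockout arrays were above wild type, but the change of 0.29 did not pass (limma adjusted p = 0.067). It did pass when the dimmest 60% of clusters were left out (adjusted p = 0.047). Ndufs8, an iron-sulfur subunit in the path of the electrons, was at 11.78, 11.82 and 11.90 against 12.12, 11.95 and 12.58. Its groups did not overlap either, but knockout array 3 stood far above knockout arrays 1 and 2, and the change of 0.38 (SE 0.15) did not pass (limma adjusted p = 0.21). Ndufb9 differed by 0.33 (SE 0.15) and its groups overlapped.

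The other core subunits of complex I differed less. Ndufs1, which receives electrons in the arm that binds NADH, was at 8.29, 8.24 and 8.24 in wild type and 8.15, 8.11 and 8.23 in knockout, so that the knockout lay wholly below, by 0.09 (limma adjusted p = 0.45). Ndufv1, which binds NADH, differed by 0.04, Ndufv2 by -0.05, Ndufs3 by 0.08 and Ndufs7 by -0.03. The 95% intervals of these 5 genes lay between -0.24 and 0.23. Ndufa and Ndufb genes, accessory subunits, had medians of 0.09 over 13 and 10 tested genes, and Ndufs genes a median of 0.02 over 7. Ndufa4, named for complex I but since found in complex IV, had the widest interval below 0, from -0.58 to 0.39, because its knockout values were 9.93, 9.98 and 10.68. Its wild-type values of 10.42, 10.15 and 10.31 lay within that range.

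The prefix Ndufa also takes in Ndufaf1 to Ndufaf7, assembly factors that help build complex I and leave it. Their median change was 0.00 over 7 tested genes, 3 higher and 3 lower, and knockout array 3 was the highest for 0 of them, against 25 of 35 tested complex I subunits (71.4%). Ndufaf1, part of the machinery that assembles the membrane arm, was at 7.01, 6.75 and 6.90 in wild type and 6.61, 6.65 and 6.52 in knockout. The knockout arrays were all below wild type, by -0.29 (SE 0.08), which did not pass (limma adjusted p = 0.10). Ndufaf6 differed by -0.18 (limma adjusted p = 0.26), with values of 6.07, 5.89 and 6.05 against 5.75, 5.81 and 5.91. Its groups overlapped by the value of wild-type array 2.

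**Figure D3:**
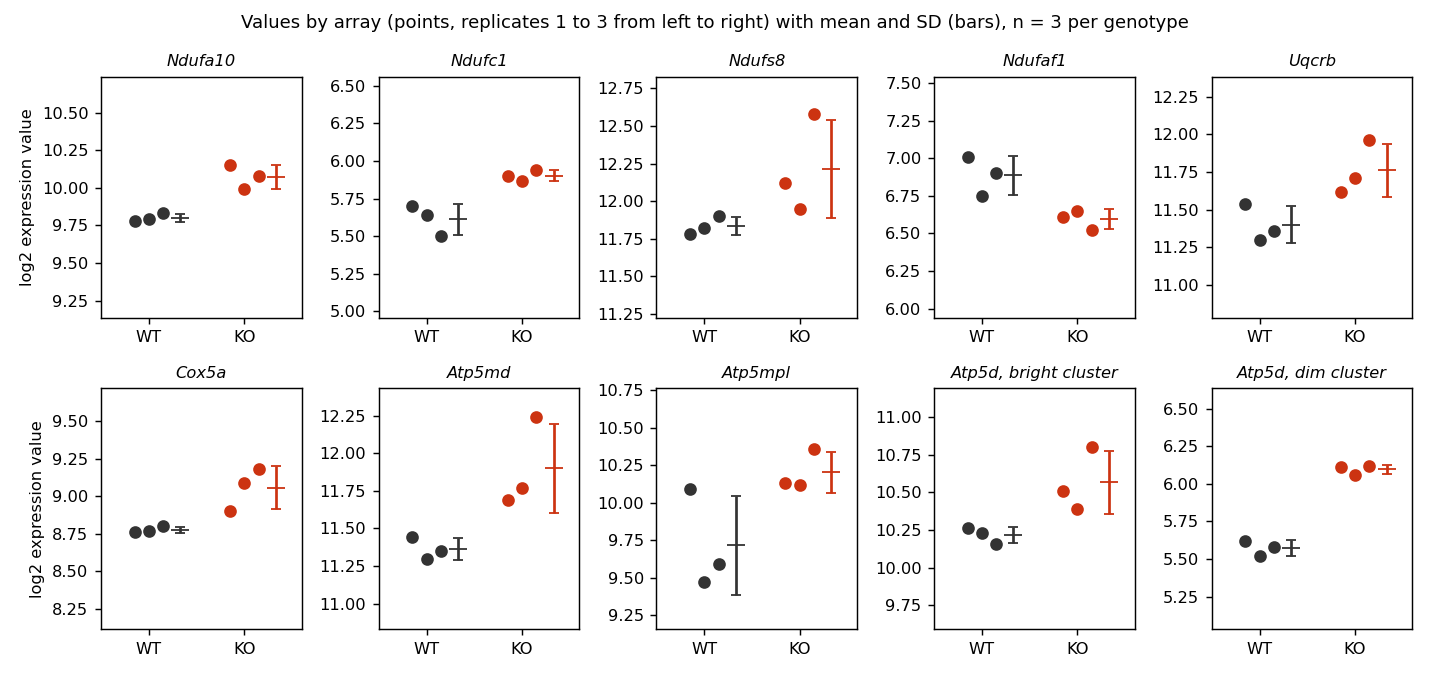
Log2 expression values by array (points, replicates 1 to 3 from left to right) of 9 members, with Atp5d shown for both of its clusters; bars give mean and SD, n = 3 per genotype, and each panel spans 1.6 log2 units. Knockout array 3 stands highest in most panels, such as Atp5md at 12.24, while the dim cluster of Atp5d has close knockout values of 6.11, 6.06 and 6.12.

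Complex II, succinate dehydrogenase, which also works in the citric acid cycle, had 0 of 4 genes past the threshold (limma), and 0 at an unadjusted p under 0.05. Its flavoprotein gene Sdha had a wild-type mean of 9.97 ± 0.03 and a knockout mean of 10.06 ± 0.06 (SD, n = 3 each), a difference of 0.08. The iron-sulfur subunit gene Sdhb differed by 0.01, and the membrane anchor genes Sdhc and Sdhd each by 0.09. Sdhc was the 1 gene of the 4 whose groups did not overlap, at 7.54, 7.53 and 7.57 against 7.62, 7.59 and 7.71. The 4 intervals together spanned -0.14 to 0.27.

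In complex III, the cytochrome bc1 complex, 0 of 8 tested genes passed (limma; 1 higher and 0 lower at an unadjusted p under 0.05), with a median of 0.11. Uqcrb, a small subunit near the ubiquinone site, had the largest difference, from 11.54, 11.30 and 11.36 to 11.62, 11.71 and 11.96. The knockout was wholly above wild type, by 0.36 (SE 0.11; limma adjusted p = 0.10). Uqcrfs1, the Rieske iron-sulfur protein that passes electrons on, differed by 0.16 (limma adjusted p = 0.25), with overlapping groups. The core proteins Uqcrc1 and Uqcrc2 differed by 0.07 and 0.05, Uqcrq by 0.04 and Uqcrh by 0.00.

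In complex IV, cytochrome c oxidase, 0 of 17 tested genes passed (limma; 2 higher and 0 lower at an unadjusted p under 0.05), and 16 of them were higher in the mean, with a median of 0.15. Without knockout array 3 the median was 0.08, and 14 were higher. Cox5a, a nuclear subunit found in all tissues, was at 8.76, 8.77 and 8.80 in wild type and 8.90, 9.09 and 9.18 in knockout. The knockout lay wholly above, by 0.28 (SE 0.08; limma adjusted p = 0.10), and the gene passed when knockout array 1 was left out (change 0.36, adjusted p = 0.040). Cox6c was at 7.81, 7.85 and 7.80 against 7.92, 7.94 and 8.05, with no overlap and a difference of 0.15 (limma adjusted p = 0.23). Cox7a2l, which joins complexes III and IV into supercomplexes, differed by 0.02.

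Several complex IV subunits exist as a common form and as forms of muscle, lung or testis. The common forms differed by 0.16 (Cox4i1), 0.19 (Cox6a1), 0.33 (Cox6b1), 0.22 (Cox7a2) and 0.05 (Cox8a), none past the threshold (limma adjusted p from 0.30 to 0.80). Cox6b1 was at 11.86, 11.63 and 11.92 against 11.91, 12.01 and 12.48, where knockout array 3 stands alone. Of the 8 tissue forms, counting Ndufa4l2 of the Ndufa4 pair, 2 lay below the brightness filter of 4.09: Cox8b of muscle at 3.21 to 3.46 and Ndufa4l2, a hypoxia-induced gene, at 3.12 to 3.58. Cox8c and Cox7b2, known from testis, lay close to it, at means of 4.34 and 4.29 in wild type and 4.37 and 4.19 in knockout. Cox4i2, the form of lung, differed by 0.21, Cox6a2 and Cox7a1 of muscle by 0.13 and 0.03, and Cox6b2 of testis by 0.15 (limma adjusted p from 0.37 to 0.87). The groups did not overlap for Cox6b2, at 6.43, 6.35 and 6.44 against 6.45, 6.52 and 6.71. The values do not say whether such dim clusters report transcript or background.

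Complex V, the ATP synthase, held the largest differences, and yet 0 of 20 tested genes passed (limma; 4 higher and 0 lower at an unadjusted p under 0.05). The median was 0.11. Of the 20, 16 are subunits, and the others are pseudogenes and Atp5sl, a complex I assembly factor. Atp5md, a small membrane subunit that helps the enzyme pair into dimers, was at 11.44, 11.30 and 11.35 in wild type and 11.69, 11.77 and 12.24 in knockout. The knockout was wholly above, by 0.54 (SE 0.14; 95% interval 0.19 to 0.88; limma adjusted p = 0.078), or 1.45-fold. Without knockout array 3 the change was 0.37 and passed (adjusted p = 0.037). Atp5mpl, a small proteolipid subunit, was at 10.09, 9.47 and 9.59 against 10.13, 10.12 and 10.36. It was wild-type array 1 that nearly reached the knockout here: the change was 0.49 (limma adjusted p = 0.15) with this array and 0.67 (adjusted p = 0.028) without it.

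Atp5d, encoding the delta subunit of the central stalk, had 2 clusters that differed in the same direction. The brighter was at 10.26, 10.23 and 10.16 in wild type and 10.51, 10.39 and 10.80 in knockout, a change of 0.35 (SE 0.11; limma adjusted p = 0.12). The dimmer was at 5.62, 5.52 and 5.58 against 6.11, 6.06 and 6.12, a change of 0.52 (SE 0.06) that passed (limma adjusted p = 0.0051). With both averaged the change was 0.44 (adjusted p = 0.020). The rule takes the brighter, so Atp5d is not counted among the called members.

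The genes for the rotor ring, Atp5g1, Atp5g2 and Atp5g3, encode the same mature protein. They differed by 0.31, 0.21 and 0.15, and in Atp5g1 the knockout lay wholly above, at 8.83, 8.91 and 9.10 against 8.80, 8.57 and 8.54 (limma adjusted p = 0.14). The brightest clusters of Atp5g2 and Atp5l are placed on chromosomes 7 and 5, away from the genes on 15 and 9. The clusters at the genes themselves differed by 0.25 and -0.01. Of the catalytic head subunits, Atp5a1 differed by 0.11 (95% interval -0.04 to 0.26) and Atp5b by 0.01 (-0.11 to 0.14). Atp5b was at 11.29, 11.18 and 11.24 against 11.24, 11.23 and 11.28. Atp5sl, a complex I assembly factor that only shares the prefix, differed by -0.10, and the pseudogenes Atp5c1-ps, Atp5l-ps1 and Atp5l2 by -0.06, 0.12 and 0.14.

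Genes around the pathway were taken from lists. Of 13 subunits encoded by mitochondrial DNA, 5 had a cluster and 0 passed (limma; 3 higher and 0 lower at an unadjusted p under 0.05). The complex I gene mt-Nd2 was at 16.27, 16.20 and 16.35 in wild type and 16.50, 16.37 and 16.62 in knockout, with no overlap and a change of 0.22 (limma adjusted p = 0.13). The complex IV gene mt-Co1 differed by 0.27 (0.11) and mt-Nd6 by 0.36 (0.21), while mt-Nd3 differed by -0.04. The mt-Co2 cluster read 10.82 or 10.83 on every array, with almost no spread.

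Among 10 other subunits and electron carriers, 1 rose: Gpd2, which feeds electrons from glycerol phosphate to ubiquinone, from 9.36 ± 0.07 to 9.65 ± 0.03 (SD, n = 3), by 0.29 (limma adjusted p = 0.033). Of 35 assembly factors outside the member rule, 2 rose and 2 fell, with a median of -0.04. Sdhaf1, which loads iron-sulfur clusters into complex II, rose from 5.69, 5.68 and 5.69 to 6.17, 6.11 and 6.07, by 0.43 (limma adjusted p = 0.0090). Cox18, which inserts a complex IV subunit into the membrane, rose by 0.41 (0.032). Tmem126b, a partner of Ndufaf1 in complex I assembly, fell from 4.76, 4.83 and 4.84 to 4.34, 4.48 and 4.39, by 0.41 (0.015). Its cluster is dim, near the brightness filter of 4.09, and was not tested when the dimmest 60% of clusters were left out. Cox15, of heme A synthesis, fell by 0.27 (0.038).

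Of 17 genes of the citric acid cycle and pyruvate dehydrogenase, 0 passed (limma; 4 higher and 0 lower at an unadjusted p under 0.05), with a median of 0.03. Of 73 mitochondrial ribosomal protein genes, 0 passed either (4 higher and 1 lower unadjusted), with a median of -0.02. Of 14 regulators of mitochondrial biogenesis 1 fell, Twnk, the helicase of mitochondrial DNA, by 0.40 (limma adjusted p = 0.038). The list's median was -0.08, with Ppargc1a at -0.10, Nrf1 at -0.09, Gabpa at -0.08 and Tfam at -0.04, none past the threshold. Of 6 tested carriers and channels, 2 rose, the ADP/ATP carrier gene Slc25a5 by 0.29 and the phosphate carrier gene Slc25a3 by 0.25 (limma adjusted p = 0.033 for each). Slc25a5 was at 16.39, 16.31 and 16.22 against 16.53, 16.58 and 16.69, and the phosphate carrier at 11.70, 11.70 and 11.71 against 12.00, 11.99 and 11.88. Of 9 genes of the hypoxia-linked switch between respiration and glycolysis, 2 rose. Hif1a, an oxygen-regulated factor, rose by 0.64 (limma adjusted p = 0.0068) and its target Ldha, a lactate dehydrogenase, by 0.32 (0.015). Pdk1, another target, differed by -0.16 (0.17).

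Most of these calls depended on the full set of arrays. With 1 array left out in turn, Gpd2, Cox15 and Twnk lost their call in 6 of 6 runs, Cox18, Slc25a3 and Slc25a5 in 5, Tmem126b in 3 and Ldha in 2. Over these runs the adjusted p reached 0.11 for Gpd2, 0.14 for Cox15, 0.13 for Twnk, 0.13 for Cox18, 0.12 for Slc25a3 and 0.11 for Slc25a5. It reached 0.072 for Tmem126b, without wild-type array 3, and 0.069 for Ldha, without wild-type array 2 or 3. Sdhaf1 and Hif1a kept theirs in all 6.

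**Figure D4:**
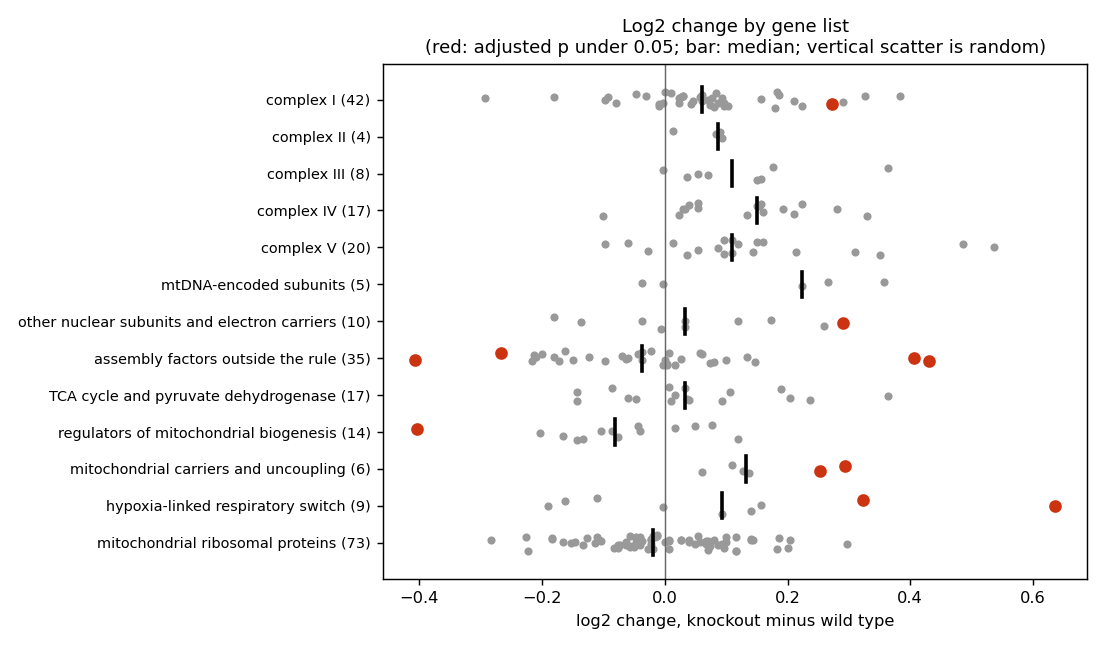
Log2 change (x axis) of the tested genes of each complex and of the lists around the pathway (number of genes in brackets); red points passed an adjusted p under 0.05 and bars mark medians. The medians of the 5 complexes run from 0.06 to 0.15, or from 0.03 to 0.08 without knockout array 3, which the plot includes; their 1 red point is Ndufa10, and the 73 mitochondrial ribosomal proteins have none.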

How the data were processed

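Whole-transcript arrays of 6 samples were analysed, with groups and replicate numbers taken from the sample titles. The deposited table holds the authors' processed log2 values of 65956 transcript clusters. The submitters' processing notes name MAS5 alone. How background, summary and normalization were handled, and the log base, is not given in the sources used here; base 2 was assumed. Precision is limited by the number of arrays. The labels call the arrays biological replicates without naming animals. Each p-value sets the genotype difference against the spread between these arrays, moderated over all tested clusters.

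The platform annotation, some years old, named 30604 clusters with 1 symbol, 2146 with several and 33206 with none. Symbols were set against the RefSeq table of GRCm38.p6. Atp5c1, Ndufa11, Ndufb1 and Ndufb4 had no cluster under their symbol alone and were not analysed here. Respiratory genes have many processed pseudogenes, so clusters may share probes with copies.

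Clusters in the dimmest 40%, with a mean over the 6 arrays under 4.09, were dropped. Genotype alone entered the linear model in limma 3.58.1 (R 4.3.3), with an intensity trend, two-sided, Benjamini-Hochberg adjusted over 39543 clusters. Standard errors and 95% intervals are moderated. The pipeline was tested on simulated data. Tables and plots used Python 3.11.15, pandas 2.3.3 and matplotlib 3.10.9.

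Named genes were called members, the 2 highest and 2 lowest statistics per complex, isoform families, Sdh genes, the redox or catalytic core, and up to 4 called genes per list. Atp5mpl, Ndufb9, Ndufa4 details, other members with groups that do not overlap, and Ppargc1a, Nrf1, Gabpa, Tfam, Pdk1 and the mt genes were named after their values were seen. Members and lists were chosen with earlier results of these data known. Alternatives were other scalings, filters, moderation, a replicate block, other cluster choices, and each array left out; taking the cluster on a gene's own chromosome was added after seeing the data.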

Additional observations from a re-analysis of the deposited data

How the results depend on the processing

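The number of members called was 1 higher and 0 lower. It was 0 higher with arrays shifted to a common median, with no filter, without an intensity trend and with the replicate block, and 2 higher with the dimmest 60% left out (Ndufa10 and Ndufc1) or with the clusters of a gene averaged (Ndufa10 and Atp5d). With 1 array left out it ran from 0 to 1, and the gene called was Cox5a, Ndufa10, Atp5md or Atp5mpl, depending on the array. No member was called lower, a count of 0 by limma, under any of the 15 alternatives. The members' median log2 change stayed above 0 under all of them, from 0.04 without knockout array 3 to 0.11 without knockout array 2. With arrays shifted to a common median it was 0.05, with complex I at 0.03 and complex II at 0.06, and with the dimmest 60% left out complex III was at 0.07. The number of members whose interval lay within -0.5 to 0.5 ran from 68 to 85. Over all clusters, the replicate block left 630 called higher and 1083 lower, against 1172 and 1914. With 1 array left out these counts ran from 540 to 970 and from 761 to 1507. Other genes of the pathway, 7 called higher and 3 lower, came to 1 and 0 with the replicate block and to 1 lower with no filter, and ran from 2 to 5 and from 0 to 1 with an array left out. Same-numbered arrays did not deviate together (correlations -0.14, -0.10 and 0.02 across clusters), so the numbers were not taken to pair them; with the block, the adjusted p was 0.14 for Ndufa10 and 0.053 for Sdhaf1. The cause of these changes was not tested.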

Other observations

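Clusters that carry more than 1 symbol, and so were left out of the members, gave values for Ndufa11 and Ndufb4, which have no cluster of their own, and second values for Cox5b and Atp5g2. The cluster shared by the complex I subunit Ndufa11 and its copy Ndufa11b was at 6.03, 6.09 and 6.01 in wild type and 6.12, 6.15 and 6.36 in knockout. Its groups did not overlap, and the difference of 0.17 did not pass (limma adjusted p = 0.31). The cluster shared by Ndufb4 and Gm3244 differed by 0.02, that of Cox5b and Gm11273 by 0.06, and that of Atp5g2 and Gm10231 by 0.16, the last highest in knockout array 3 at 12.43.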
